A study of Mus musculus with 9 samples.

Results

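Probe sets for the proteins of the cytosolic ribosome were followed across dendritic cells of 3 mouse groups. They were chosen by name: a single gene symbol in the platform's annotation that begins with Rpl or Rps and a digit, without pseudogene symbols and without the S6 kinases (Rps6k). The array designs are called larger and smaller below by the number of arrays run on them, not by their number of probe sets. On the larger the rule gave 47 of 12488 probe sets, for 33 genes, and on the smaller 45 of 12654, for 35 genes. Of these, 38 probe sets are on both designs, and the probe sets of either design stand for 35 of the 85 protein-coding genes of the RefSeq gene table whose symbols meet the same rule. A further 38 and 32 ribosomal probe sets that carry several symbols were left out. Rpl3, Rpl5, Rpl10, Rpl11, Rpl22l1, Rpl26, Rps2, Rps6, Rps26 and Rps27a have no probe set that meets the rule.

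The cells were day 10 dendritic cells (DCs), which take up antigen and show its peptides on MHC class II proteins to T cells. The groups were wild-type B6 mice, mice labelled CIITA-/-, for the activator of class II transcription, and mice labelled IAb-/-, after H2-Ab1, which encodes the class II beta chain; no treatment, age or mutant strain background was given for any group. Each group has 3 of the 9 Affymetrix arrays, numbered as experiments 1 to 3: experiment 1 is on the smaller design, with 1 array a group, and experiments 2 and 3 on the larger, with 2 a group. The labels do not tell whether arrays within a group stand for different animals or cultures; the p-values then cover only the spread from array to array, which may be technical.

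Ribosomal proteins, named Rpl in the large subunit and Rps in the small, are assembled with ribosomal RNA in the nucleolus and exported as subunits that join on a messenger RNA. Their genes are transcribed strongly in nearly every cell type, and the transcripts begin with a pyrimidine run, the terminal oligopyrimidine tract, through which mTOR signalling controls their translation. Dendritic cells raise translation early after activation and lower it as they mature. In bulk RNA of this kind, fewer cells of a type and less RNA per cell cannot be told apart.

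Start regions are printed for 7 members because the pyrimidine run is the feature these genes are known to share. They run from 40 bases before to 20 bases after the RefSeq start on GRCm38.p6, 5′ to 3′ on the gene's strand, with each run of at least 8 C or T in capitals. The first 3 and the next 2 belong to genes with strong array signals, with and without such a run, and the last 2 to genes with signals in the noise. They lie at chr17:33955646-33955705 (Rps18, minus strand), chr2:26910767-26910826 (Rpl7a, plus), chr17:27635225-27635284 (Rps10, minus), chr10:128549149-128549208 (Rpl41, minus), chr17:33824543-33824602 (Rps28, minus), chr11:114668540-114668599 (Rpl38, plus) and chrX:37085203-37085262 (Rpl39, minus).
Rps18: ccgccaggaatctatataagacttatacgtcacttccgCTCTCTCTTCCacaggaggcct
Rpl7a: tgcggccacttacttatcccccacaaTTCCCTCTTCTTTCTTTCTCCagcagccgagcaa
Rps10: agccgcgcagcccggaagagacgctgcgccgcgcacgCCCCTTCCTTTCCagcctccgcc
Rpl41: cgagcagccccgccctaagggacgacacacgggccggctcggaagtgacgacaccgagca
Rps28: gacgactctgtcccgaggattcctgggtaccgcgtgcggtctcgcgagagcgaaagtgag
Rpl38: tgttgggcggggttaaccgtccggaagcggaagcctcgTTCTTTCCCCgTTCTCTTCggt
Rpl39: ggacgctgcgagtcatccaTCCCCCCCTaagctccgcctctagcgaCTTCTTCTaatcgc

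The RefSeq promoter table held 37 starts for 28 of the 35 genes. A run of at least 8 C or T on the gene's strand lay in this 60-base window at 18 of the 37 (48.65%), against 24.19% of the 32851 starts of all genes. The longest shown, in Rpl7a, has 21 bases, and the longest in Rpl41 has 4. In the 300 bases from 250 before to 50 after the start, CCGGAAG, the core of sites for ETS-family factors, was found on either strand at 12 member starts (32.43%, against 8.858% of all). AAGATGGC, the core of sites for YY1, was found at 7 (18.92%, against 2.749%), and TATAAA, the motif bound by TBP, at 3 (8.108%, against 13.62%). CCGGAAG ends with the letters that AAGATGGC begins with, so that matches to both can overlap. By array signal, the pyrimidine run lay at 8 of the 20 starts of genes with a probe set above 20000 and at 10 of the 17 starts of the other members. AAGATGGC lay at 0 of those 20 and 7 of those 17, the 7 belonging to 5 genes. CCGGAAG lay at 7 and 5, and TATAAA at 1 and 2. These are matches of letters in a window, some of them at alternative starts of 1 gene, and the split by signal depends on the probes and does not order the genes by abundance.

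Signals are in arbitrary intensity units. Because the files hold no detection calls, a noise limit was taken from the values themselves, after they had been seen: the 95th percentile of the negative values taken without their sign, 1701 on the larger design and 2203 on the smaller. Signals of different probe sets depend on the probes as well as on the transcript, so they do not order the genes by abundance. The Ciita probe set lay under that limit on every array, at 623 and 933 in B6 and 1601 and 1639 in CIITA-/- (experiments 2 and 3). H2-Ab1 gave 17261 and 21348 in B6, 615 and 112 in CIITA-/-, and 16070 and 9621 in IAb-/-. Whether these probe sets lie in the stretch deleted from their own gene is not given, so Ciita does not check the CIITA-/- label nor H2-Ab1 the IAb-/- label. CIITA activates H2-Ab1 and also H2-Aa, the alpha chain gene, which read 51407 and 53578 in B6, -1520.3 and -2254 in CIITA-/-, and 46977 and 29271 in IAb-/-. Both genes were thus low on the arrays labelled CIITA-/-. All 14 dendritic cell markers of the list (Itgax, Flt3, Ccr7, Cd83 and others) were above noise on all 6 arrays of experiments 2 and 3. Of the other lists, 4 of 10 macrophage markers were (Cd14, Cd68, Csf1r and Lyz2, not Adgre1, Mertk or the C1q genes), 1 of 8 neutrophil markers (Lcn2), 1 of 4 B cell markers (Pax5) and 3 of 11 proliferation markers (Mcm3, Mcm5 and Pcna). None of the 6 T cell markers and none of the 2 erythroid markers were.

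Ribosomal protein probe sets fell into a bright and a dim part. Of the 47 on the larger design, 19, for 17 genes, averaged above 20000 over the 6 arrays, and the means of the other 28 were at most 6635. The dimmest of the 19 is Rpl10a 161327_f_at at 23064, so the bound of 20000, set after the values were seen, lies in a gap. Only 3.57% of all probe sets without controls are above 20000, 425 besides these 19. Members make up 3 of the 20 brightest probe sets, 12 of the 50 brightest and 17 of the 100 brightest. On all 6 arrays 22 members were above noise, on all 6 another 22 were within it, and 3 were mixed; over all probe sets the shares above and within noise on every array were 29.7% and 60.1%. By gene, 20 of the 33 had a probe set above noise on every array, 10 had none that left the noise, and 3 fell between.

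**Figure D1:**
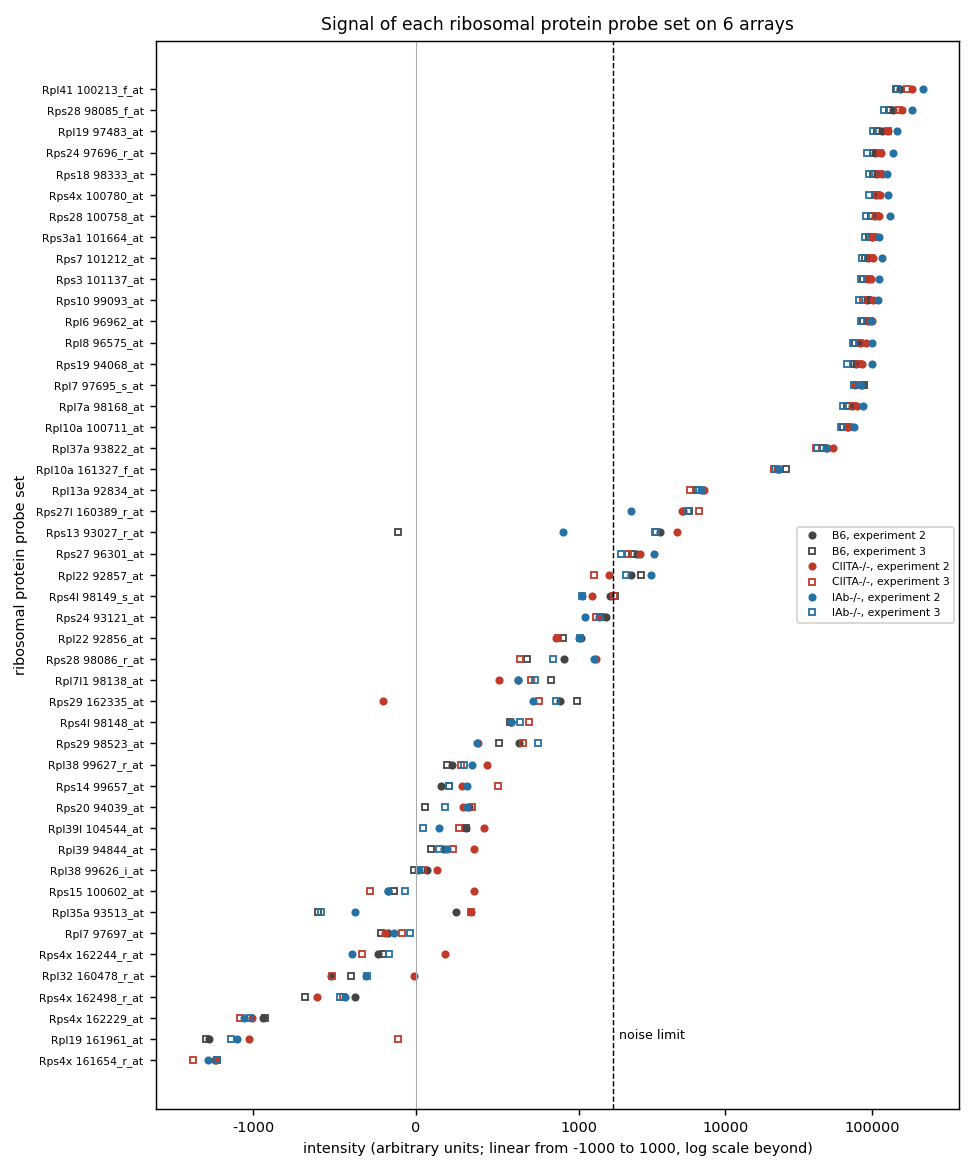
Intensity of each of the 47 ribosomal protein probe sets on the 6 arrays of experiments 2 and 3, in arbitrary units on an axis that is linear from -1000 to 1000 and logarithmic beyond; each point is 1 array, and the dashed line is the noise limit of 1701. The 19 probe sets at the top lie above 20000 on every array, and 22 probe sets at the bottom lie left of the noise limit on every array.

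The brightest member was Rpl41 100213_f_at, for the smallest protein of the large subunit. Values are given with experiment 2 first. Rpl41 read 155433 and 146845 on the B6 arrays, 186838 and 174671 on the CIITA-/- arrays, and 222649 and 147945 on the IAb-/- arrays, and it was the brightest probe set other than controls on each of the 6. Both CIITA-/- values lie above both B6 values, while the IAb-/- values lie at the top and near the bottom of the 6. Rps28 98085_f_at, for a small subunit protein, read 138384 and 130901 in B6, 159230 and 153910 in CIITA-/-, and 187614 and 121498 in IAb-/-. Rpl19 97483_at, for a large subunit protein, read 117015 and 108102, then 129665 and 129662, then 148458 and 102402. Rps18 98333_at, for a protein of the small subunit's head, read 108044 and 101977, then 116680 and 113126, then 126579 and 94740. In each of these, as in Rpl41, the CIITA-/- values lie above the B6 values, the IAb-/- array of experiment 2 is the highest of the 6, and that of experiment 3 lies at or near the lowest.

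Several other bright members repeated this order of arrays, and several did not. Rps19 94068_at, for a protein whose loss causes Diamond-Blackfan anemia in humans, read 77954 and 75821 in B6, 85496 and 81466 in CIITA-/-, and 99808 and 67835 in IAb-/-. Rps3 101137_at, for a small subunit protein that also takes part in DNA repair, read 94333 and 86427, then 97750 and 95921, then 112104 and 83670. Both follow it. Rpl7 97695_s_at departed from it: 84916 and 87980 in B6 against 76558 and 77463 in CIITA-/- and 83694 and 75874 in IAb-/-, so that B6 was the highest group. Rpl10a 161327_f_at departed as well, with 23318 and 26008 in B6, 22502 and 21430 in CIITA-/-, and 23384 and 21744 in IAb-/-. The other probe set of that gene, 100711_at, ranged from 61152 to 74845 and was highest on the IAb-/- array of experiment 2, but its CIITA-/- values overlapped those of B6. CIITA-/- and B6 values overlapped in the same way in Rps10 99093_at, Rps3a1 101664_at and Rpl37a 93822_at. Rpl37a was both highest and lowest on a CIITA-/- array (53978 and 41262), and Rpl6 96962_at was highest on the CIITA-/- array of experiment 2 (99723).

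Across the 19 bright probe sets, 15 were highest on the IAb-/- array of experiment 2 and 16 were lowest on that of experiment 3. Their median log2 signal relative to the mean of the 6 arrays was 0.24 on the first of these and -0.19 on the second. On the other arrays it was -0.03 and -0.11 in B6 and 0.08 and 0.02 in CIITA-/-. The hybridisation spike-ins, bacterial and phage transcripts added to the sample, had the same extremes: 9 of 9 were highest on the IAb-/- array of experiment 2 (median 0.42) and 9 of 9 lowest on that of experiment 3 (-0.41). So had all 6 actin and Gapdh control probe sets (0.34 and -0.28). Of the other 425 bright probe sets, 209 were highest on the first array and 210 lowest on the second (medians 0.09 and -0.11). The summed signal of the dendritic cell markers was also highest on the first (798204) and lowest on the second (575497). Most of that sum comes from Ccl17, Cd74 and Ccl22. Cd40 (2952 and 5740) and Cd86 (21231 and 23610) were lower on the first than on the second. The part of these array differences in any ribosomal protein value was not tested.

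**Figure D2:**
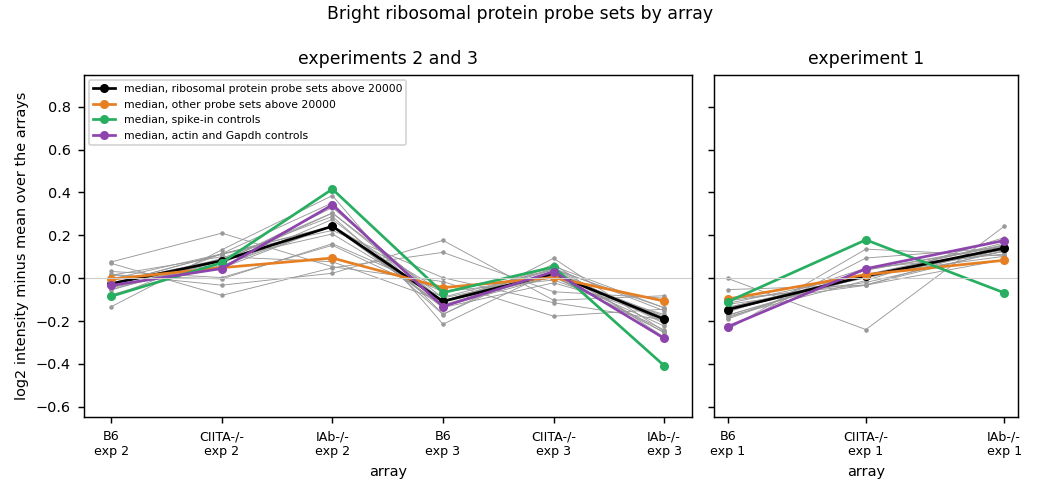
Log2 intensity of the bright ribosomal protein probe sets on each array, relative to the mean over the arrays of the panel (left, 19 probe sets in experiments 2 and 3; right, 18 in experiment 1); thin grey lines are single probe sets and coloured lines are medians of named sets. In the left panel every median is highest on the IAb-/- array of experiment 2 and lowest on that of experiment 3, with the spike-ins at 0.42 and -0.41 and the ribosomal probe sets at 0.24 and -0.19.

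Among probe sets above 20000, the gap between the IAb-/- arrays was wider for the brighter. Over the 19 ribosomal probe sets, its median on the log2 scale (experiment 2 minus experiment 3) was 0.42, with a range of 0.11 to 0.63, and its Spearman correlation with mean signal was 0.73 across probe sets, which share the same arrays. Above a signal of 100000 it was 0.54 for 8 ribosomal probe sets and 0.56 for 28 others. From 20000 to 100000 it was 0.41 for 11 ribosomal probe sets and 0.16 for 397 others. Levels were not matched inside these bands. In the spike-ins the gap was 0.82, at a median signal of 10996 on the IAb-/- array of experiment 2. The fit pools the spread of all groups, so this gap enters the SE of every comparison, also that of CIITA-/- with B6.

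Experiment 1 is on the other design and was normalised separately. Of the 18 bright probe sets also present there, 17 were lowest in B6 and 17 highest in IAb-/-, with medians of -0.15, 0.01 and 0.14 in B6, CIITA-/- and IAb-/- relative to the mean of the 3 arrays. Experiment 2 taken alone had the same order, with 14 of 19 lowest in B6 and 16 highest in IAb-/- (medians -0.13, -0.03 and 0.13). Experiment 3 differed, with 16 of 19 lowest in IAb-/- and 15 highest in CIITA-/- (medians -0.01, 0.12 and -0.09). In experiment 1, all 6 actin and Gapdh probe sets were lowest in B6 and highest in IAb-/-, while 6 of the 9 spike-ins were highest in CIITA-/-. Rpl19 97483_at read 25600.2 in B6, 32192 in CIITA-/- and 33298 in IAb-/-. Rps3 101137_at read 35476, 38927 and 41310.4 in the same order. These are single arrays with no replicate within the table.

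The comparison of CIITA-/- with B6 cells asks whether loss of the class II activator goes with other levels of ribosomal protein transcripts. Bright ribosomal probe sets read slightly higher in CIITA-/- cells: 16 of 19 had a positive log2 difference, with a median of 0.12, and none passed the test. Of the other bright probe sets 277 of 425 were positive, with a median of 0.05. Rpl41 differed by 0.26 (SE 0.24, 95% interval -0.36 to 0.88), Rpl19 by 0.21 (SE 0.22, interval -0.37 to 0.78) and Rps28 98085_f_at by 0.22 (SE 0.24, interval -0.42 to 0.86). Rpl7 lay the other way at -0.17 (SE 0.14, interval -0.53 to 0.20). Of the 47 probe sets, 38 passed the filter on low values and were tested; 0 of 38 were called at an adjusted p under 0.05 (limma, Benjamini-Hochberg over 9312 probe sets, lowest adjusted p 0.81), against 0.0966% of all probe sets tested. With the experiment as a block, 0 of the 9312 were called, in place of 9. Over the 38, 26 differences were positive and 12 negative with a median of 0.11, beside a median of 0.01 over all probe sets tested.

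Within experiments the shift had 1 direction. The median difference of the bright members between CIITA-/- and B6 was 0.16, 0.11 and 0.13 in experiments 1, 2 and 3, positive in 17 of 18, 15 of 19 and 15 of 19 probe sets. Both CIITA-/- arrays lay above both B6 arrays in 18 of the 38 tested (47.4%), where 21% of all probe sets tested did so, and below both in 6, against 17.8%. Among the bright, 13 of 19 ribosomal and 157 of 425 other probe sets lay above. These bright sets are not matched in level: their median signals on the B6 array of experiment 2 were 94295 and 36386. The part of level in their differences was not tested. Counted over all 3 experiments, 17 of 35 were higher in CIITA-/- each time, against 13.6% of all with a value in each, and 2 were lower each time, against 12.6%. Among the bright the counts higher each time were 13 of 18 ribosomal and 183 of 383 other probe sets. The other bright probe sets had medians of 0.11, 0.06 and 0.06 in the same experiments. They were positive in 326 of 383, 294 of 425 and 267 of 425. Inside their quartiles lay 9 of 18, 8 of 19 and 11 of 19 ribosomal values. The direction depended on the scaling: the 19 had a median of 0.02 after quantile normalisation (10 higher, 9 lower), and of -0.02 when arrays were scaled to the spike-ins (4 higher, 15 lower), which moved the median of all probe sets to -0.12.

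**Figure D3:**
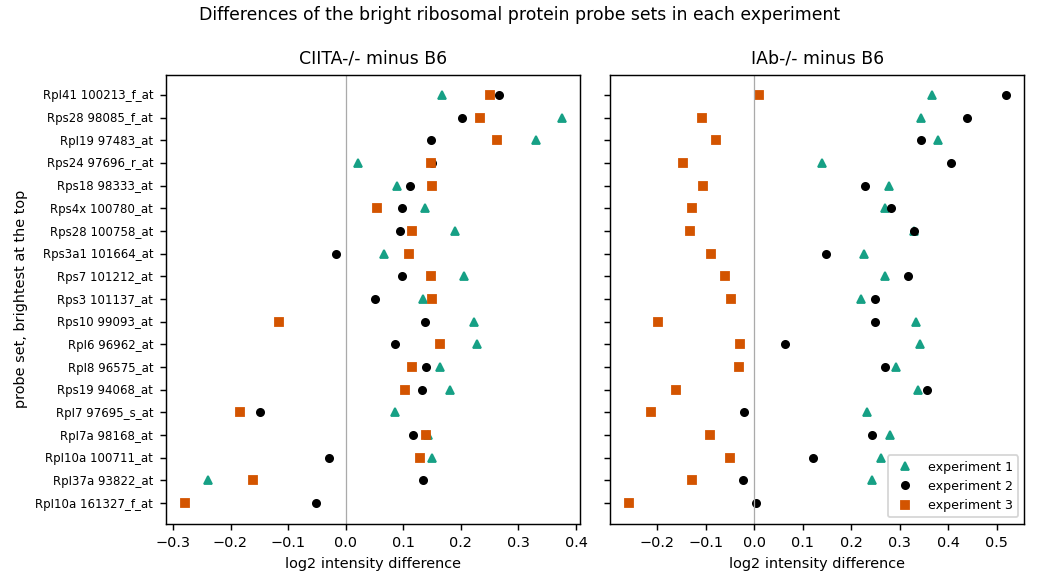
Log2 intensity difference of each of the 19 bright ribosomal protein probe sets from the B6 array of the same experiment, for CIITA-/- (left) and IAb-/- (right); each marker is 1 experiment, and experiment 1 has 18 of the probe sets. On the left the experiments overlap around medians of 0.16, 0.11 and 0.13; on the right experiments 1 and 2 lie to the right of 0 for most probe sets and experiment 3 to the left for 18 of 19.

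Dim members held the larger log2 values between CIITA-/- and B6. At an unadjusted p under 0.05 (limma) 4 of 38 were higher (10.5%), against 3.22% of all probe sets, and 1 was lower, against 2.64%; with the experiment as a block 3 reached it in either direction. The 4 are Rpl39, Rpl38, Rps14 and Rpl35a, each within noise on all 6 arrays. Rpl35a passed the filter on low values only through its CIITA-/- arrays, so its place in this count is no evidence of a difference. Rpl39 94844_at, for a small protein that lines the exit tunnel of the large subunit, read 171 and 94 in B6, 357 and 228 in CIITA-/-, and 188 and 142 in IAb-/-. Its CIITA-/- values lie above the 4 others, and experiment 1 had 108 in B6 against 572 in CIITA-/- and 688 in IAb-/-. The fitted difference was 0.97 (SE 0.32, interval 0.14 to 1.81, limma adjusted p = 0.81).

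Rpl38 99627_r_at, for a large subunit protein that in the mouse embryo is needed for translation of Hox messenger RNAs, read 221 and 187 in B6, 434 and 277 in CIITA-/-, and 347 and 296 in IAb-/-. B6 was lowest without overlap, also in experiment 1 with 339 against 629 and 992. Rps14 99657_at, for a small subunit protein whose reduced dose impairs red cell formation, read 155 and 203 in B6, 283 and 502 in CIITA-/-, and 314 and 204 in IAb-/-. The B6 array was lowest in experiment 1 too, at 150.2 against 495 in CIITA-/- and 484 in IAb-/-. Their differences between CIITA-/- and B6 were 0.77 (SE 0.27) and 1.09 (SE 0.38), both with a limma adjusted p of 0.83. Rpl35a 93513_at, for a large subunit protein, read 248 and -604 in B6 and 336 and 334 in CIITA-/-, and below 0 in all of experiment 1. Outside CIITA-/- only the B6 array of experiment 2 exceeded the floor. The difference from B6 was 0.44 in experiment 2 and 1.44 in experiment 3, where the B6 value was set to the floor.

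Rpl22 92857_at was the member lower in CIITA-/- at an unadjusted p under 0.05. It encodes a large subunit protein needed for the development of alpha-beta T cells. The probe set read 2286 and 2636 in B6, 1602 and 1276 in CIITA-/-, and 3128 and 2082 in IAb-/-. Both CIITA-/- values lie under the noise limit and the 4 others above it. The mean of B6 was 1.45 times the noise limit and that of IAb-/- 1.53 times. These ratios leave out the spread between arrays, so they set no bound on the difference between groups. On the log2 scale the difference from B6 was -0.78 (SE 0.26, interval -1.47 to -0.09, unadjusted p = 0.034, limma adjusted p = 0.81). Experiment 1 did not show it, with 2529 in B6 and 2585 in CIITA-/-. The gene's other probe set, 92856_at, was within noise at 858 and 874 in CIITA-/- against 1038 and 905 in B6.

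IAb-/- cells were compared with B6 next, which sets the loss of the class II beta chain against wild type. No direction held across experiments. The median difference of the bright members was 0.28 in experiment 1, positive in 18 of 18, and 0.25 in experiment 2, positive in 17 of 19, but -0.11 in experiment 3, negative in 18 of 19. The other bright probe sets turned the same way, with medians of 0.18, 0.10 and -0.07. They were positive in 327 of 383 and 306 of 425, and negative in 288 of 425 in experiment 3. Fitted over experiments 2 and 3, the 19 had a median of 0.08 (16 positive, 3 negative), and the 38 tested one of 0.07 beside 0.01 over all probe sets. In the same fit 241 of the 425 other bright probe sets were positive, with a median of 0.02. Rpl41 differed by 0.27 (SE 0.24, interval -0.35 to 0.88). Without the IAb-/- array of experiment 2 the median over the 38 was -0.12, and without that of experiment 3 it was 0.28.

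None of the 38 were called between IAb-/- and B6 (limma, lowest adjusted p 0.67), against 0.0107% of all. With the experiment as a block 0 of 9312 passed, in place of 1. At an unadjusted p under 0.05 there were 0 higher, against 2.28%, and 2 lower, against 2.03%, and with the block 3 in either direction. The IAb-/- arrays lay above both B6 arrays in 3 of 38, against 16.5% of all, and below both in 5, against 15.8%. In all 3 experiments 5 of 35 were higher, against 12.7%, and 1 lower, against 12.2%. The 5 are Rpl38 99627_r_at, Rpl39, Rpl41, Rps14 and Rps4l 98148_at, and of these only Rpl41 is above noise. Its difference in experiment 3 was 0.01.

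Rps4l 98149_s_at, for a copy of the X-linked small subunit gene Rps4x, was the 1 lower in each experiment. It read 1632 and 1770 in B6, 1223 and 1734 in CIITA-/-, and 1056 and 1049 in IAb-/-, with 2011 in B6, 1150.5 in CIITA-/- and 931 in IAb-/- in experiment 1. IAb-/- was the lowest group without overlap. The fitted difference from B6 was -0.69 (SE 0.21, interval -1.25 to -0.14, unadjusted p = 0.025, limma adjusted p = 1), and most of the values lie under the noise limit. The other Rps4l probe set, 98148_at, ranged from 576 to 696 on the 6 arrays.

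Rpl39l 104544_at, for the paralogue of Rpl39 that is most abundant in the testis, had the smallest p of the ribosomal probe sets in this comparison and the opposite sign in experiment 1. It read 308 and 304 in B6, 415 and 264 in CIITA-/-, and 141 and 45 in IAb-/-. IAb-/- was lowest, with a fitted difference of -1.21 (SE 0.26, interval -1.89 to -0.54, unadjusted p = 0.0061, limma adjusted p = 0.67). On the arrays of experiment 1 IAb-/- was highest, at 613 against 104 in B6. All of these values are within noise.

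Rps27l 160389_r_at, for a paralogue of Rps27 that p53 induces, was above noise on every array. It read 5099 and 5614 in B6, 5031 and 6595 in CIITA-/-, and 2263 and 5544 in IAb-/-. The low value is that of the IAb-/- array of experiment 2, on which bright probe sets were highest, and the difference from B6 was -0.60 (SE 0.46, interval -1.80 to 0.62). Experiment 1 measured the gene with another probe set, 96903_at, at 3751 in B6, 5245 in CIITA-/- and 4941 in IAb-/-. Rps27 96301_at itself read 2475 and 2300.2 in B6, 2621 and 2152 in CIITA-/-, and 3259 and 1945 in IAb-/-, so the groups overlap.

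The third comparison sets CIITA-/- cells directly against IAb-/- cells; it shares its arrays with both others. Bright members had a median difference of 0.01 (12 positive, 7 negative) and none passed. Their medians in experiments 1, 2 and 3 were -0.13, -0.16 and 0.20, and those of the other bright probe sets -0.07, -0.06 and 0.10. No member was called (limma, lowest adjusted p 0.47), against 0.0215% of all, and with the block 0 of 9312 in place of 2. At an unadjusted p under 0.05 there were 2 higher, against 2.59%, and 1 lower, against 1.95%, and with the block 4 in either direction. Groups did not overlap in 4 members as higher, against 13.3%, and in 2 as lower, against 12.6%. In all 3 experiments 1 was higher (Rps4l 98149_s_at), against 10.4%, and 1 lower (Rpl22 92857_at), against 11.9%.

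The 2 higher in CIITA-/- than in IAb-/- were Rpl39l, at 1.33 (SE 0.26, unadjusted p = 0.0043, limma adjusted p = 0.47), and Rpl35a, at 1.44 (SE 0.35, unadjusted p = 0.011, limma adjusted p = 0.65). Rpl35a lay below 0 on both IAb-/- arrays, at -373 and -587, so the value depends on the floor. It also passed the filter only through the CIITA-/- arrays. Rpl22 92857_at was lower by value at -0.84 (SE 0.26, interval -1.53 to -0.15, limma adjusted p = 0.92). It was also lower in experiment 1, with 2585 in CIITA-/- against 3230.0 in IAb-/-.

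**Figure D4:**
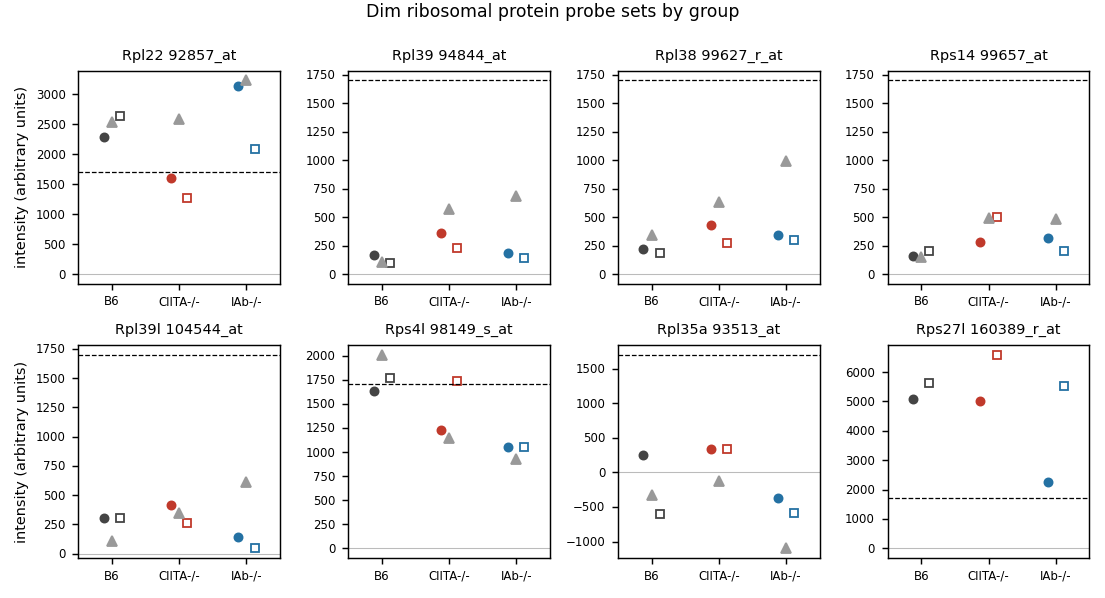
Intensity of 8 dim ribosomal protein probe sets by group; filled circles are experiment 2, open squares experiment 3 and grey triangles experiment 1 (another design, absent for Rps27l), and the dashed line is the noise limit of 1701 of the larger design. Rpl39, Rpl38, Rps14, Rpl39l and Rpl35a lie under the line on every array, Rpl22 crosses it with the CIITA-/- values of experiments 2 and 3 beneath, and the Rps27l value of the IAb-/- array of experiment 2 stands apart at 2263.

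The precision of the 6 arrays differs between bright and dim members. The SE of a bright member's log2 difference lay between 0.14 and 0.24, and the widest 95% interval reached 0.64 to either side. Over the tested dim members the SE ran up to 1.71. That value is from Rps13 93027_r_at, which read 3592 and -108.5 in B6, 4678 and 3323 in CIITA-/-, and 900.5 and 3336 in IAb-/-. Rps29 162335_at, at 884 and 988 in B6 and -202 and 756 in CIITA-/-, had an SE of 0.87. Of the remaining named members, Rpl13a 92834_at, for a large subunit protein that also silences inflammatory messenger RNAs, ranged from 5715 to 7192 and differed between CIITA-/- and B6 by -0.07 (SE 0.18). Rps20 94039_at ranged from 56 to 345, and Rpl7l1 98138_at, for a paralogue of Rpl7, from 511 to 827. The values of Rpl32 160478_r_at and 8 more probe sets were not tested, since they did not exceed the floor on 2 arrays. Rps15 100602_at, for a small subunit protein, is among these, at -173 and -138.5 in B6, 353 and -283 in CIITA-/-, and -172.5 and -67.6 in IAb-/-.

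Probe sets of 1 gene often disagreed in level. Of the 10 genes with several, Rpl19 had means of 122551 (97483_at) and -1333 (161961_at), Rpl7 of 81081 (97695_s_at) and -139 (97697_at), and Rps24 of 110889 (97696_r_at) and 1353 (93121_at). Rps4x had 1 probe set at 109993 and 4 below 0. Rps28 98085_f_at and 98086_r_at come from the same source sequence and averaged 148589 and 942. Rpl7 97695_s_at and Rps24 97696_r_at also come from the same source sequence but are assigned to different genes, so which transcript either measures is uncertain. A name ending in _f_at, _s_at, _r_at or _i_at marks a probe set that may detect related sequences or was chosen under relaxed rules, and ribosomal protein genes have many processed pseudogenes. On the larger design 32 members end in plain _at, 3 in _f_at, 1 in _i_at, 9 in _r_at and 2 in _s_at; on the smaller the numbers are 32, 4, 2, 5 and 2. Of the 19 bright probe sets, 14 end in plain _at.

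Between designs, bright ribosomal probe sets kept no common order. Over the 18 present on both, the Spearman correlation of mean signal was -0.33, against 0.64 over 383 other bright probe sets. Over all 38 members on both designs, bright and dim, it was 0.85, and over all 9977 shared probe sets 0.96. The 18 were picked by their level on 1 design, so they span only part of the range of signal. The tables were normalised separately, so only ranks are set side by side, and the points share each design's probes. Rpl41 100213_f_at, the first of the 18 on the larger design, was the 17th on the smaller at 14904, 16737 and 19232 in B6, CIITA-/- and IAb-/-. Rps28 98085_f_at went from rank 2 to 18, Rpl19 from 3 to 14 and Rps18 from 5 to 15. Rpl7 97695_s_at went from 15 to 1, and at 76072, 80741 and 89369 it was the brightest probe set other than controls on each array of experiment 1. Both _f_at probe sets of the 18 thus stood at the top on 1 design and at the bottom on the other. On the smaller design Rps4x 97044_f_at averaged 7975 and Rpl19 99206_f_at lay within noise.

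**Figure D5:**
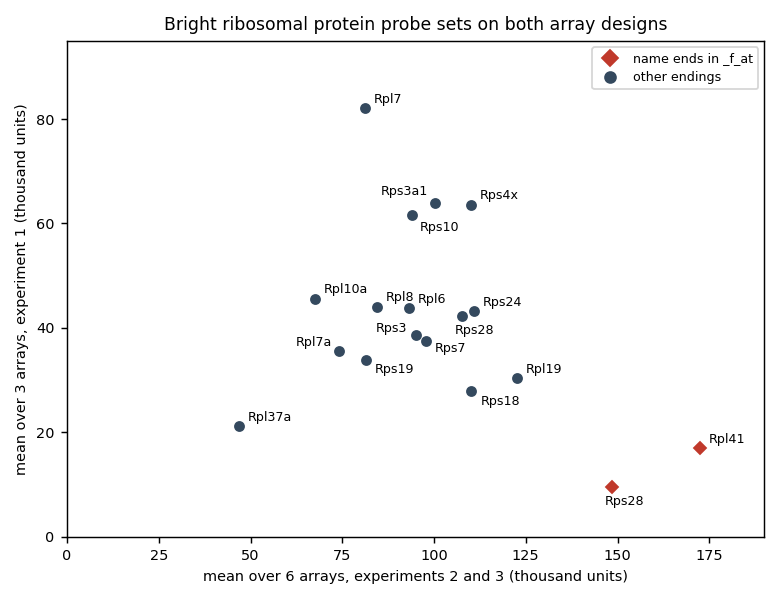
Mean intensity of the 18 bright ribosomal protein probe sets present on both array designs, in arbitrary units divided by 1000: 6 arrays of experiments 2 and 3 on the horizontal axis, 3 arrays of experiment 1 on the vertical axis; red diamonds mark names ending in _f_at. Rpl41 and Rps28 _f_at lie at the right and bottom, Rpl7 at the top, and no rising trend is seen (Spearman -0.33).

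The highest value on an array ran from 147945 on the IAb-/- array of experiment 3 to 222649 on that of experiment 2, and the 99th percentile from 52997 to 64222. In experiment 1 the highest values were 76072, 80741 and 89369. The arrays of the larger table share a trimmed mean of 2500, so they were brought to a common scale and these maxima do not bear on a ceiling. Pixel data were not used here, so saturation of the scanner or of the probes was not tested.

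Genes beside the ribosomal proteins in the translation machinery were read from lists, and none of their members were called in any comparison. Of 3 other cytosolic ribosome genes, Rplp0, for the stalk protein, read 136653 and 128800.3 in B6, 153795 and 151217 in CIITA-/-, and 184167 and 124285 in IAb-/-. Rpsa, which is also a laminin receptor, read 68339 and 63008, then 78438 and 72175, then 91648 and 59825. Both repeat the order of arrays of the bright Rpl and Rps probe sets, and Fau was within noise. Translation factors (28 of 30 tested) had median differences of 0.02 for CIITA-/- and 0.06 for IAb-/- against B6. The unadjusted p of Eif4e, the cap-binding factor, was the smallest among them, with 209 and 186 in B6 against 430 and 441 in CIITA-/- and 447 and 403 in IAb-/-, all within noise, and its sign was opposite in experiment 1.

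Ribosome assembly genes (29 of 30 tested) had medians of -0.03 and 0.06 in the same comparisons, and mitochondrial ribosomal proteins (60 of 61 tested) of -0.02 and -0.04. Of the latter, 36 were above noise on every array. Ubtf, a factor of RNA polymerase I, read 2203 and 3286 in B6, 1772 and 1656 in CIITA-/-, and 1556 and 1720 in IAb-/-, and was higher than B6 in both mutants in experiment 1. Mrps18a, a mitochondrial ribosomal protein, read 6491 and 6330.3 in CIITA-/- against 4533 and 5193 in IAb-/-, a difference of 0.40 (SE 0.15, limma adjusted p = 1) with the same sign in experiment 1. Of 3 genes named as S6 kinases by symbol, Rps6kb2 and Rps6ka3 were within noise on every array, and Rps6kc1, a kinase-like gene named by homology, was above it.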

How the data were processed

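RNA of dendritic cells was measured on 9 arrays, 3 a group. The authors deposited an unlogged intensity for each probe set on each array; how it was computed from the scans is not stated in the labels or files. Between 21% and 26.4% of an array's values lie below 0. Values under the 30th percentile of a table (123.5 and 93.2) were set to it and log2 was taken, which understates changes of dim probe sets. Probe sets above the floor on at least 2 of the 6 arrays of the larger table (9312) were fitted with limma 3.58.1 in R 4.3.3 (lmFit and eBayes, 3 groups, 3 residual degrees of freedom). A call is a Benjamini-Hochberg adjusted p under 0.05 over all of them. The 3-array table entered no test. The fit function was run on simulated arrays with planted changes larger than the differences of the bright members and without shared array shifts. That run does not bear on differences as small as theirs. The number of arrays limits the precision.

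In 1 case, a CIITA-/- array, the title has no experiment number; it was given 2, the number left in its group. The titles number arrays as experiments, and deviations of same-numbered arrays from group means correlated at 0.22 to 0.31 over 3692 probe sets above noise (with 2 arrays a group, experiments 2 and 3 give the same values), so the experiment was fitted as a block beside the fit without it.

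Members and gene lists were chosen with earlier results of these data known. Named were fixed genes of interest, in each comparison the 5 member genes a direction with the smallest p and up to 3 a direction with the same sign in all experiments, the 5 brightest and dimmest genes, and genes whose probe sets differ or end in _f_at; a few more list genes were named after their values were seen. Symbols come from the platform's annotation, and all 35 matched the RefSeq table (GRCm38.p6) by gene ID and symbol. Alternatives varied the floor, filter, scaling, probe sets, block and arrays.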

Additional observations from a re-analysis of the deposited data

How the results depend on the processing

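No member was called in any comparison under any setting tried. The median over the 38 members tested, for CIITA-/- against B6, was 0.109 as reported and moved to 0.0884 with the floor at the 50th percentile, 0.0206 after quantile normalisation and -0.0296 with spike-in scaling; leaving out single arrays gave 0.0632 (without the B6 array of experiment 3) to 0.142. For IAb-/- against B6 (0.0678) leaving out single arrays gave -0.123 to 0.282, the extremes being without the IAb-/- arrays of experiments 2 and 3. For CIITA-/- against IAb-/- (0.0175) the range was -0.136 to 0.216, at the extremes without the IAb-/- arrays of experiments 3 and 2. Within experiments, the median over every member for CIITA-/- against B6 moved with the 50th percentile floor to 0.0211, 0 and 0 in experiments 1, 2 and 3, and with quantile normalisation to 0.0678, 0 and 0. In experiment 3 (0.0538) it was 0.104 with a floor of 1, 0.115 over probe sets of both tables, 0.106 over plain _at probe sets and 0.128 over members above 20000. For IAb-/- against B6 in experiment 2 it was 0.249 over members above 20000, against 0.00439. For CIITA-/- against IAb-/- in experiment 3 it was 0 with the 50th percentile floor and with quantile normalisation. The cause of these moves was not tested. With the experiment as a replicate block, 0 members were called in each comparison, and the block over all 9 arrays gave medians of 0.12, 0.14 and -0.03. Of 30 differences of named genes, 21 kept their sign under every setting that gave them a value (15 settings, or 14 for 15 of the 30), and none passed the adjusted threshold under any. The floor at the 10th percentile could not be run because it lies below 0; the floor of 1 was chosen after seeing the data, as were the sets above noise and above 20000.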

Other observations

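The array's control probe sets for 18S ribosomal RNA, which the small subunit proteins bind, were read for values only. The 3′ probe set gave 2778 and 1621 in B6, 1945 and 4040 in CIITA-/-, and 4043 and 1248 in IAb-/- in experiments 2 and 3. The groups overlap, and the middle probe set was below 0 on every array. In experiment 1 the 3′ probe set read 659, 1467 and 327 in B6, CIITA-/- and IAb-/-, under the noise limit of that table.

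Lcn2, a neutrophil marker, was the 1 marker of its list above noise on every array of experiments 2 and 3, at 1970.2 and 1704 in B6, 2595 and 2955 in CIITA-/-, and 6575 and 4726 in IAb-/-. The difference of IAb-/- from B6 was 1.61 (SE 0.22, limma adjusted p = 0.41). Camp, another marker of the list, crossed the noise limit, at 1974 and 2030 in B6, 2651 and 2360 in CIITA-/-, and 1033 and 2152 in IAb-/-. Its difference of IAb-/- from B6 was -0.43 (SE 0.37), opposite in sign to that of Lcn2, and 1.53 in experiment 1. The remaining markers, S100a8, S100a9, Ngp, Elane, Ltf and Mpo, were within noise on every array.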
